A study of Mus musculus with 46 samples.

Results

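The genes described are 10 genes of liver sinusoidal endothelial cells: Clec4g, Stab1, Stab2, Lyve1, Flt4, Kdr, Pecam1, Tek, Erg and Fli1. They were taken by name from 21631 protein-coding mouse genes, and all 10 were found in the gene table. Each was read as its whole gene body plus 2500 bp on each side (GRCm38 coordinates), and the measured value is the number of bases in that window that lie inside a deposited peak, called covered bp below. Covered bp tells how far a mark spreads over a gene, not how strong it is.

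Peaks came from native ChIP-seq, in which chromatin is cut with micrococcal nuclease and not crosslinked before antibodies pull down nucleosomes with a given mark. The tissue was frozen liver of female mice aged 11 weeks on standard chow. The controls were wild type (WT), and the other mice were hypomorphic Pcca-/- (A138T); their libraries are named PA, and both genotypes were on the FVB background. Pcca encodes a subunit of propionyl-CoA carboxylase, the enzyme that removes propionyl-CoA. Of 46 samples, 8 were inputs and 38 had peak lists. Of these, 36 were 2 WT and 2 PA libraries for each of 9 antibodies, and 2 were WT libraries of an in-house H4K16pr antibody. Preparation A gave H3K9ac, H3K27ac, H4K16ac and H4K16bu, and preparation B gave H4K5ac, H4K5pr, H4K12ac, H4K12pr and H4K16pr (Thermo), where ac, pr and bu stand for acetyl, propionyl and butyryl groups on the named lysine. The labels do not say whether the A and B preparations of 1 number come from the same liver, nor whether tissue of several animals was pooled, so p-values measure only the spread between these samples.

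Sinusoidal endothelial cells line the liver capillaries, form a fenestrated wall without a basement membrane, and clear waste from blood. Stab1, Stab2 and Lyve1 are scavenger or hyaluronan receptors, and Clec4g is a C-type lectin of these cells. Kdr and Flt4 are receptors of vascular endothelial growth factors and Tek is the angiopoietin receptor, while Pecam1 is an adhesion molecule of all vessels. Erg and Fli1 are ETS transcription factors that bind DNA around the letters GGAA and maintain endothelial gene expression. Clec4g, Stab1, Stab2, Lyve1 and Flt4 are typical of sinusoids, and the other 5 are shared by most endothelium; Fli1 is also active in blood cells. Histone acetylation lies at active starts and enhancers, and propionyl and butyryl groups are placed on the same lysines from their own CoA donors.

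Promoters are shown for the genes at which a mark pair or a start separated most: Clec4g, Kdr, Stab2 and the start of Erg that carried peaks. Each runs from 250 bases before to 50 bases after the annotated start on the minus strand, credited to RefSeq (GRCm38.p6), at chr8:3720602-3720901 for Clec4g, chr5:75978406-75978705 for Kdr, chr10:87007893-87008192 for Stab2 and chr16:95459299-95459598 for Erg. Capitals mark the motifs CAGGAA or CCGGAA, read on both strands (TTCCTG or TTCCGG in reverse).
Clec4g: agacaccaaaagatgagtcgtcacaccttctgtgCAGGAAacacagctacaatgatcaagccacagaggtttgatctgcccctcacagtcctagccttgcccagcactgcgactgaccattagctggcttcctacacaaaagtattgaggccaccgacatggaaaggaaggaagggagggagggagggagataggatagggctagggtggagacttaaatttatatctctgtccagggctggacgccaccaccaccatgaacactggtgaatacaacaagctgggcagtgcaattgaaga
Kdr: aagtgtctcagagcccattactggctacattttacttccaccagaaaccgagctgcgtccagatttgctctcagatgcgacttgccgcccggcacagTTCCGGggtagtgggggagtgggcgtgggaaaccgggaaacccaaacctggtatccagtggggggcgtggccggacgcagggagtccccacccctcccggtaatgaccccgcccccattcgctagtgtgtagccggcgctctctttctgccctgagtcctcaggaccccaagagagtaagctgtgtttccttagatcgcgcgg
Stab2: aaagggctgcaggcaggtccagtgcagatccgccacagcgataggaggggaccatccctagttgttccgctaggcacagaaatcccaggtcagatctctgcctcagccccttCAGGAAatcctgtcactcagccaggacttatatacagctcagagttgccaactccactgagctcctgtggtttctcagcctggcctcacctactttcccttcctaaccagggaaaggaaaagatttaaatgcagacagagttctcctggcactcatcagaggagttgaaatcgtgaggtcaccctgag
Erg, start entry 3: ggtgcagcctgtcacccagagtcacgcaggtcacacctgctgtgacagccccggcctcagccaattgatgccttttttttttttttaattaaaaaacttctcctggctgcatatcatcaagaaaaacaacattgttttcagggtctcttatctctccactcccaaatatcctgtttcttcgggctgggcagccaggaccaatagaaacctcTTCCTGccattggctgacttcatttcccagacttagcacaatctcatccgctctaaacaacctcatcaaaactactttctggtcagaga
One of these motifs was present in 6 of the 9 promoter entries of the 7 genes with an entry, beside 41.4% of all 32851 promoters of that length. CAGGAA was present in 5 of the 9, beside 30.6% of all promoters, and CCGGAA in 1 of the 9, beside 14.9%. Fli1, Lyve1 and Pecam1 had no entry. A match describes the letters and is not a binding site.

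The 36 libraries held 32358 to 70887 peaks that covered 47.8 to 165.1 Mb of genome. Covered genome was wider in PA for most antibodies, as in H4K5ac (113.4 and 118.7 Mb in WT, 145.4 and 154.6 Mb in PA) and H4K16ac (47.8 and 74.76 Mb in WT, 104.6 and 116.4 Mb in PA). The median gene was 495 bp wider in PA than in WT, or 0.18 on the log2(covered bp + 1000) scale. All 10 genes had a peak in at least 18 of the 36 libraries and 5 had one in every library. Beside them, 15 of 15 hepatocyte genes had a peak in all 36 libraries, while 9 of 16 neuronal genes, 5 of 14 cholangiocyte genes (Epcam, Krt19, Krt7, Cftr and Tspan8), the macrophage gene Marco and the T-cell genes Cd3e and Cd8a had none. Livers are mixed tissue: in these bulk samples, fewer cells of a type and a narrower mark per cell cannot be told apart. The 2 in-house H4K16pr libraries covered little of the genes, 2.56% and 0.110% of the summed windows, and are not used further.

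H3K9ac was the mark that spread furthest at most of these genes. Averaged over its 4 libraries, it was the widest of the 9 antibodies at 7 of the 10 genes (Clec4g, Stab1, Flt4, Kdr, Tek, Erg and Fli1), and H3K27ac was the widest at Stab2, Lyve1 and Pecam1. Over all 16082 genes, H3K9ac was the widest at 26.4% and H3K27ac at 27.7%, and H3K27ac covered more of the genome (153 Mb against 116 Mb on average). In the summed windows of the 10 genes, H3K9ac covered 15.2% and 17.0% in WT and 15.2% and 16.7% in PA. H3K27ac covered 8.26% and 9.45% in WT and 9.61% and 11.1% in PA, so every H3K9ac library lay above every H3K27ac library.

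**Figure D1:**
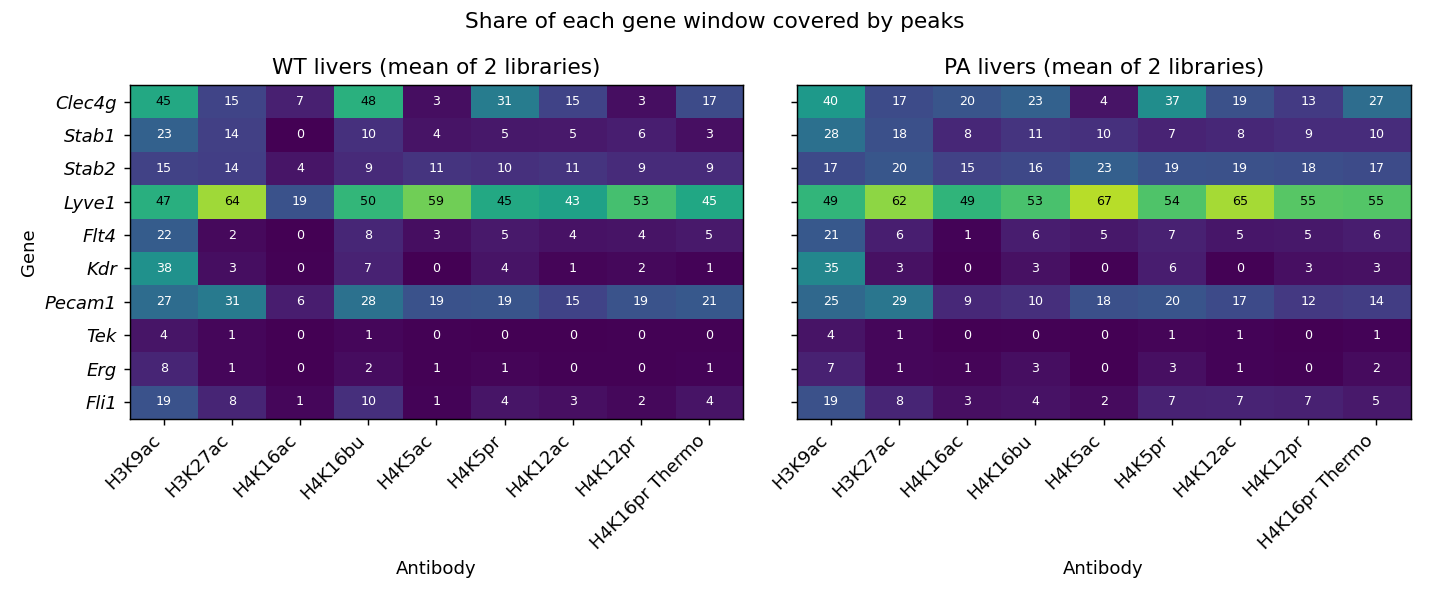
Covered bp as a percent of each gene's window, for 10 endothelial genes (rows) and 9 antibodies (columns). WT and PA have separate panels, each showing the mean of 2 libraries. H3K9ac has the highest cell at Stab1, Flt4, Kdr, Tek, Erg and Fli1 in both panels, at Stab2 in WT only and at Clec4g in PA only. In WT the highest cell of Clec4g is H4K16bu. Kdr is nearly empty in H4K5ac and H4K16ac.

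The separation of the acetylated H3 lysines was widest at Kdr, the main receptor of vascular endothelial growth factor A. Its window of 51246 bp (chr5:75932827-75979072 for the gene) held 20800 and 18003 bp of H3K9ac in WT and 17057 and 18539 bp in PA. H3K27ac covered 651 and 2082 bp in WT and 862 and 2679 bp in PA. The marks were far apart, and within each mark the genotypes overlapped. Erg (chr16:95359169-95586600) had H3K9ac of 18121 and 18398 bp in WT and 14756 and 17805 bp in PA, against H3K27ac of 1500 to 4781 bp. Fli1 (chr9:32422204-32543432) had H3K9ac of 22289 to 25003 bp against H3K27ac of 5833 to 13523 bp. All 4 H3K9ac libraries lay above all 4 H3K27ac libraries at Kdr, Erg, Fli1, Flt4, Clec4g and Tek. At Lyve1 all 4 lay below, with 7884 to 8648 bp of H3K9ac against 10150 to 11843 bp of H3K27ac. The share of all genes at which these marks did not overlap was not counted.

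The test of H3K9ac against H3K27ac was added after the values were seen. By limma across 15621 genes, with genotype in the model and Benjamini-Hochberg adjustment, 7 of the 10 genes were wider in H3K9ac and 1 was narrower, where 9.76% of all genes were wider and 19.6% narrower. The difference at Kdr was 17031 bp (SE 879, adjusted p = 7.51e-05), at Erg 14108 bp (SE 959, adjusted p = 0.000201) and at Fli1 13963 bp (SE 1686, adjusted p = 0.000981). They held ranks 8, 13 and 14 among all genes. Flt4 differed by 8183 bp, Clec4g by 4933 bp and Tek by 4099 bp, with adjusted p from 0.000206 to 0.00625. Stab1 differed by 3257 bp with an adjusted p of 0.0410, which rose to between 0.0549 and 0.182 when any 1 preparation was left out, and its window also holds ends of Nisch and Nt5dc2. Lyve1 was narrower in H3K9ac by 2583 bp (adjusted p = 0.00941), but per Mb covered in the library its adjusted p was 0.995, under quantile normalization 0.227 and without WT A replicate 2 0.0579. Stab2 was not called on covered bp (adjusted p = 0.453), and it was called wider in H3K9ac per Mb (0.0185) and under quantile normalization (0.0132). Over all genes, 33.3% of the calls were wider in H3K9ac, against 84.2% per Mb and 54.9% under quantile normalization. With preparation as a block 9 of the 10 were called, Pecam1 being narrower in H3K9ac with an adjusted p of 0.0470, where 9.54% of all genes were wider and 20.2% narrower.

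Lists of other liver cell types were read for this pair of marks as well. Of 32 other endothelial genes, 23 were wider in H3K9ac and 1 narrower. Of 16 stellate cell genes 15 were wider, of 15 tested Kupffer cell and macrophage genes 10, and of 13 tested lymphocyte genes 4 (with 1 narrower). Of 15 hepatocyte genes 2 were wider and none narrower, and of 7 tested neuronal genes none was wider and 1 narrower; at an unadjusted p under 0.05, limma counted 5 hepatocyte and 2 neuronal genes in either direction. Calls leaned the other way in 2 lists: of 9 tested cholangiocyte genes 1 was wider and 4 narrower (median -1370 bp), and of 16 genes of the vascular endothelial growth factor and angiopoietin pathways 3 were wider and 5 narrower (median -387 bp). The median difference was 4516 bp for the 10 genes, 3903 bp for the other endothelial genes, 4547 bp for stellate genes, 107 bp for hepatocyte genes and -215 bp for all genes. Ptprb, the phosphatase that acts on Tek, had 1300 ± 962 bp of H3K27ac and 34686 ± 2898 bp of H3K9ac (SD, n = 4 each). Ehd3, which is abundant in sinusoidal endothelium, had 4594 ± 461 bp and 22461 ± 427 bp. These 2 genes are both called in the H4K5 comparison as well.

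The annotated starts were read in the 5000 bp centred on each. There, limma called 4 genes wider in H3K9ac than in H3K27ac: Clec4g, Flt4, Kdr and Stab2, with adjusted p from 0.000194 to 0.00154. Fli1, Lyve1 and Pecam1 have no start in the table, and the test read the first start of Erg, which held no covered base. The shares of all genes called, or without overlap, at starts were not counted, so these results have no background beside them. H3K9ac covered 3035 to 3289 bp at the Clec4g start in all 4 libraries, 3754 to 4660 bp at Kdr, 3126 to 3417 bp at Flt4, 2623 to 3168 bp at Tek, 2951 to 3295 bp at Stab1 and 3293 to 3941 bp at Stab2. H3K27ac covered 500 to 1448 bp at Clec4g, 0 to 1082 bp at Kdr, 0 to 777 bp at Flt4, 0 to 2427 bp at Tek, 630 to 2948 bp at Stab1 and 0 to 1313 bp at Stab2. The marks did not overlap at these 6 starts, but the gap was narrow at Tek and Stab1, whose adjusted p were 0.0677 and 0.129. H4K5ac covered 0 bp in 4 of 4 libraries at the starts of Clec4g, Kdr and Flt4, and at most 500 bp at Tek and Stab2 and 634 bp at Stab1. Erg has 3 annotated starts in the table. The first and second held no covered base in any of the 36 libraries, and the third, printed above, held 2857 to 3266 bp of H3K9ac in its 4 libraries. H4K16bu also covered the third Erg start, by 706 to 2555 bp, and H4K5ac, H4K12ac and H4K12pr covered none of it in 4 of 4 libraries each.

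**Figure D2:**
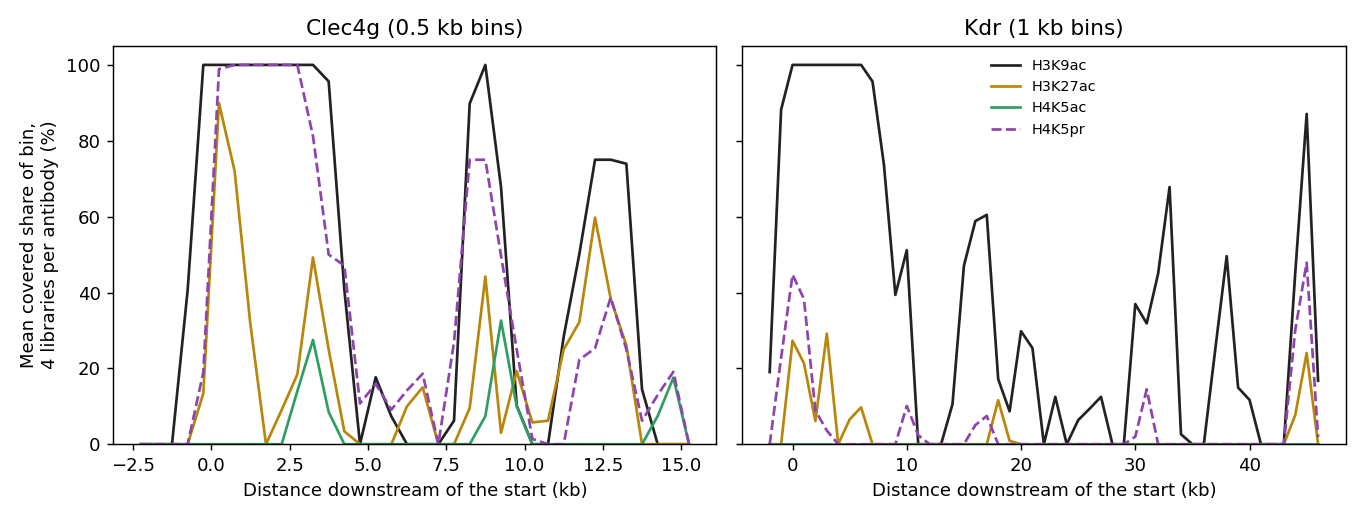
Percent covered by distance from the annotated start of Clec4g and of Kdr, as the mean of 4 libraries for each mark shown. H3K9ac peaks lie over both starts, where H4K5ac covers 0 bp of the 5000 bp around them.

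Stab2, the hyaluronan and waste receptor, had the largest difference in covered bp between PA and WT of the 10 genes. As a share of the window, the means over 18 libraries were 10.4% in WT and 18.1% in PA for Stab2, and 47.2% and 56.7% for Lyve1, the shorter gene. The Stab2 window is the 171845 bp around chr10:86841194-87008038. Averaged over the antibodies of each preparation, it held 19424, 16605, 18346 and 16992 bp in the 4 WT preparations and 28799, 29312, 32799 and 32619 bp in the 4 PA preparations. The genotypes did not overlap. WT preparations averaged 17842 ± 1292 bp and PA preparations 30882 ± 2121 bp (SD, n = 4 each), a difference of 13040 bp (SE 1257). By limma with preparation letter in the model the adjusted p was 0.000621, and the difference ranked 98 among 16082 genes. Of these genes 21.3% were called wider in PA and 0.914% narrower; 95.9% of the calls were wider, against 48.3% on covered bp per Mb covered in the library and 55.3% under quantile normalization. Stab2 was called wider in PA on those scales too, with adjusted p of 0.00273 and 0.00376. Among alternatives it lost the call at the start alone (0.189) and with preparation B libraries alone (0.0569, where 3 genes in all were called).

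The gain was seen antibody by antibody. H4K5ac covered 22361 and 16007 bp of Stab2 in WT and 39525 and 38334 bp in PA. H4K16ac, the antibody with the narrowest WT libraries, covered 10262 and 4066 bp in WT and 28912 and 21541 bp in PA. H4K12pr covered 15431 and 16528 bp in WT and 31040 and 30457 bp in PA. H3K9ac differed least, with 27559 and 23300 bp in WT and 27324 and 30343 bp in PA, and it was the single antibody at which the genotypes overlapped. For the remaining 5 antibodies the WT libraries ran from 13256 to 25799 bp and the PA libraries from 23379 to 35580 bp. Across the 36 libraries, the covered bp of Stab2 and the Mb covered in the whole library had a Pearson r of 0.823, points that share library and depth; the part of library width in the result was not tested beyond the per-Mb and quantile values above.

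**Figure D3:**
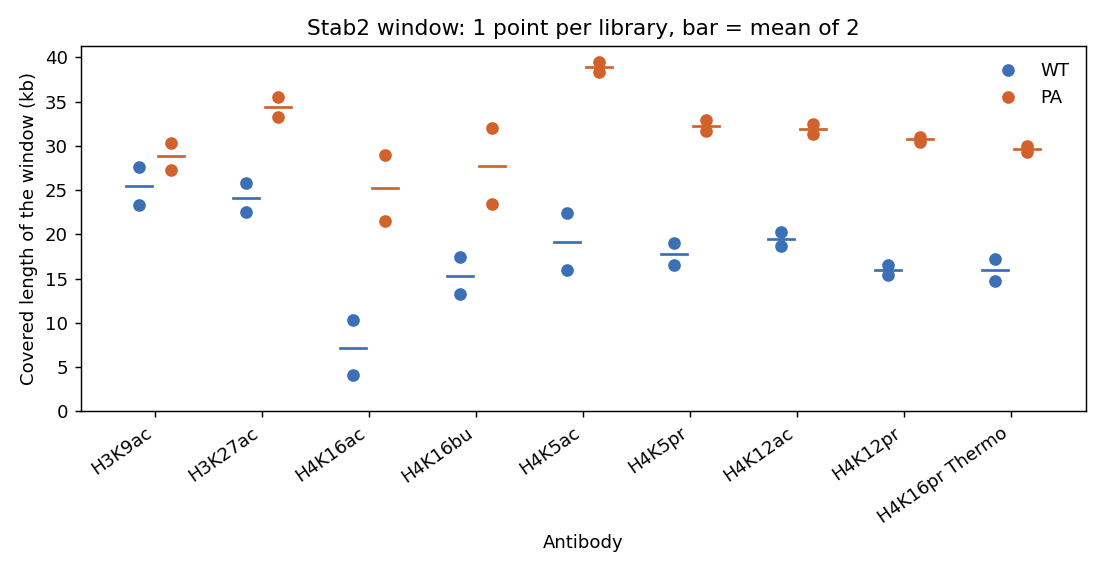
Covered bp of the Stab2 window in each library, by antibody, with WT and PA libraries as separate points. Both PA points lie above both WT points for 8 antibodies, and the genotypes overlap for H3K9ac.

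Within Stab2 the larger gain in covered bp lay beyond 25 kb from the start, in the longer of 2 stretches. The first 25 kb and the flank before it (27500 bp) averaged 1680 ± 1821 bp over WT and 2286 ± 1497 bp over PA preparations (SD, n = 4 each), and the genotypes were apart for 3 of 9 antibodies. The rest (144249 bp) averaged 16161 ± 1589 bp over WT and 28596 ± 3514 bp over PA preparations. Both PA libraries lay above both WT libraries there for 9 of 9 antibodies. For H3K9ac they were barely apart, with 14536 and 16656 bp in WT and 16661 and 18225 bp in PA. H3K9ac covered 38.6% of the first stretch, while each of the other 8 antibodies covered 0.964% to 6.03% of it. In the first 5000 bp after the start H3K9ac covered 97.8% and H4K5ac 2.5%. Near the start PA was wider in part. From -2000 to 0 bp mean coverage was 14.1% in WT and 26.1% in PA, with a covered base in 7 and 12 libraries. From 0 to 2000 bp it was 16.4% and 25.2%, and from 2000 to 4000 bp 11.3% and 11.1%. At 125 to 130 kb coverage was 95.7% ± 8.76 in WT and 99.9% ± 0.264 in PA (SD, n = 18 libraries each, which share preparations), with the lowest library at 64.4% in WT and 98.9% in PA. At 80 to 85 kb coverage was 29.6% ± 15.0 in WT and 60.0% ± 10.8 in PA. At 145 to 150 kb 2 WT libraries and 16 PA libraries had a covered base. From 40 to 55 kb no library had one. The split at 25 kb was chosen after the values were seen, so it is a description.

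**Figure D4:**
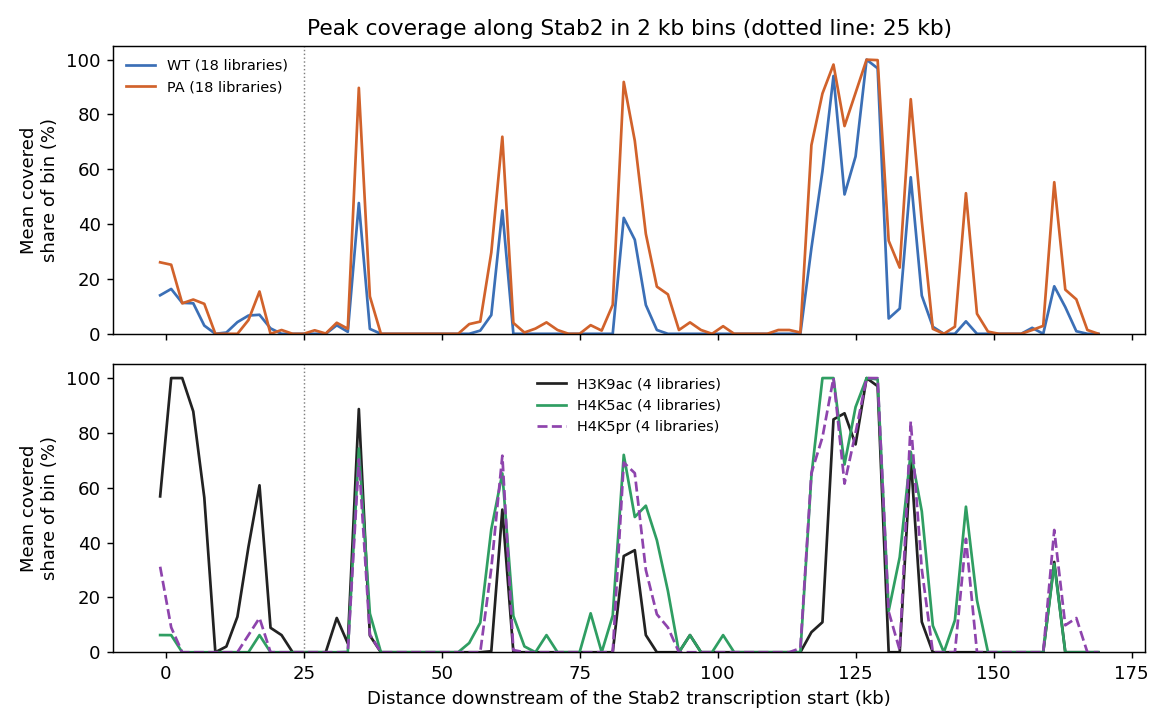
Percent covered along Stab2 by distance downstream of its start, as WT and PA means over 18 libraries each. H3K9ac, H4K5ac and H4K5pr have lines of their own in a separate panel. H3K9ac fills the start, and PA lies above WT at 80 to 85 kb (60.0% and 29.6%) while the means are 95.7% and 99.9% at 125 to 130 kb.

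Of the 10 genes, Stab1 and Stab2 were called wider in PA and none was called narrower, 2 of 10 beside the 21.3% of all genes. The median difference was 650 bp over the 10 genes and 495 bp over all genes, and 7 of the 10 differences were above 0, beside 85.7% of all genes. Stab1, a scavenger receptor of sinusoidal endothelium and some macrophages, averaged 2874 ± 1586 bp over WT preparations and 4413 ± 1623 bp over PA preparations (SD, n = 4 each), a difference of 1539 bp (SE 427, adjusted p = 0.0323). Its PA mean was higher for 9 of 9 antibodies. Its preparations overlapped between genotypes when A and B were pooled, but not within A or within B. The A preparations held 3455 and 4850 bp in WT and 5226 and 6162 bp in PA. The B preparations held 1464 and 1727 bp in WT and 3804 and 2460 bp in PA. The call was lost per Mb (0.0723), under quantile normalization (0.282) and without H4K16ac (0.103), whose libraries covered 0 and 0 bp in WT and 1775 and 4096 bp in PA. Leaving out WT A replicate 1 (0.0827), PA A replicate 2 (0.0912), WT B replicate 1 (0.0867), WT B replicate 2 (0.0598) or PA B replicate 1 (0.0831) also ended it. The neighbours Nisch and Nt5dc2 reach into its window.

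Lyve1, the hyaluronan receptor, averaged 8150 ± 1200 bp over WT and 9785 ± 710 bp over PA preparations (SD, n = 4 each), with an adjusted p of 0.0823, and 0.0425 without WT B replicate 1. Pecam1 averaged 13691 ± 2544 bp over WT and 11426 ± 1897 bp over PA preparations, 2265 bp less, with an adjusted p of 0.184. On the scaled values Pecam1 was called narrower in PA, with adjusted p of 0.0188 per Mb and 0.0270 under quantile normalization. Its widest gap between genotypes was in H4K16bu, where the libraries held 20811 and 16032 bp in WT and 2769 and 10590 bp in PA; without H4K16bu the difference was -790 bp. Clec4g averaged 3960 and 4178 bp in WT and PA, Fli1 7697 and 8858 bp, and Flt4 2917 and 3316 bp. Kdr averaged 3445 and 3345 bp, Erg 4135 and 5037 bp, and Tek 1452 and 1335 bp. By limma none of these was called, with adjusted p of 0.379 to 0.885. Their means lay closer than the SDs over preparations, but those SDs also hold the difference between the antibodies of A and B. At Kdr the WT preparations held 5981 and 6341 bp in A and 732 and 728 bp in B. The signs of Clec4g, Fli1, Flt4, Kdr and Tek turned under at least 1 scaling or left-out set.

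Within 1 antibody, with 2 libraries against 2, limma called 0 of the 84 tested gene and antibody pairs, with 22 at an unadjusted p under 0.05, where 0.000773% of all pairs were called higher and 16.9% had an unadjusted p under 0.05. The smallest adjusted p was 0.0632, for Stab2 in H4K5pr. Both PA libraries lay above both WT libraries in 31 of the 84 tested pairs, beside 42.9% of all pairs tested, and below in 6, beside 6.70%. Stab2 gave 8 of the 31, Stab1 5 and Fli1 4. Pecam1 gave none of them and 3 of the 6 below, in H4K16bu, H4K12pr and H4K16pr.

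The first PA replicate of H4K16bu stood apart at several of the genes. It held 1767 bp at Fli1, where the second PA library held 7326 bp and the WT libraries 12499 and 12769 bp. At Clec4g it held 732 bp against 7908 bp in PA and 10423 and 7285 bp in WT. Over the 10 summed windows it covered 5.06%, against 9.74% and 8.47% in WT and 10.01% in the other PA library. Other endothelial genes were at 5.68%, against 12.5% and 10.4% in WT and 13.4% in the other PA library. Hepatocyte genes were at 31.2%, against 27.1%, 31.3% and 38.1%. Kupffer cell genes were at 6.06%, against 9.83%, 9.16% and 7.99%. Their part in the result was not tested. Without H4K16bu, the adjusted p of Stab2 between genotypes was 0.000732.

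Marker lists of other cells were read in the same pooled fit, each beside the 21.3% of all genes. None of 15 tested Kupffer cell and macrophage genes and none of 13 tested lymphocyte genes was called by limma; at an unadjusted p under 0.05 they counted 0 and 1. The smallest p values were at Csf1r (1961 and 2643 bp in WT and PA), the receptor of macrophage colony-stimulating factor, and at Ptprc (1055 and 526 bp), the common leukocyte antigen. Of 15 hepatocyte genes 2 were wider in PA, the urea cycle genes Ass1 (22352 and 28452 bp) and Cps1 (33655 and 51010 bp). Reln was the 1 stellate gene of 16 called wider, and 4 of 9 tested cholangiocyte genes were called wider, among them Prom1 (7035 and 11272 bp), Sctr (7938 and 13309 bp) and Sox9 (1997 and 3615 bp). On covered bp per Mb, a scale added for these lists after the values were seen, the wider calls were 0 of 15 hepatocyte, 0 of 16 stellate and 2 of 9 cholangiocyte genes, and under quantile normalization 1, 0 and 2, beside 5.89% and 5.54% of all genes. Narrower in PA per Mb were Id3 of the Kupffer cell list, Ahsg of the hepatocyte list and Syt1 of the neuronal list. Under quantile normalization they were Id3, Cd4 (lymphocytes) and Cldn7 (cholangiocytes). Beside these, 6.31% and 4.48% of all genes were narrower. Averaged over 18 libraries, Kupffer cell genes were covered by 8.88% in WT (range 4.88% to 20.0%) and 9.26% in PA (6.06% to 20.6%). Hepatocyte genes were covered by 44.8% (13.8% to 83.7%) and 52.1% (24.9% to 86.7%), and the 10 genes by 7.10% (1.08% to 17.0%) and 9.01% (5.06% to 16.7%). Much of the rise over the 10 genes came from Stab2, which was 13040 bp wider in PA over preparations. The next largest rise was 1635 bp, at Lyve1, and Pecam1, Kdr and Tek were narrower on average. On unscaled covered bp limma called none of 7 tested neuronal genes, with 0 at an unadjusted p under 0.05, and the smallest p values there were at Elavl4 and Elavl3.

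The pathways around these receptors were taken from 2 further lists. Of 32 other endothelial genes, 5 were wider in PA, or 15.6% beside 21.3% of all genes: Eng (8006 and 12666 bp in WT and PA), a co-receptor of bone morphogenetic proteins, Gata4 (22613 and 30264 bp), a transcription factor of liver sinusoids, Ephb4, Esam and Ptprb. Of 16 genes of the vascular endothelial growth factor and angiopoietin pathways, 6 were wider, or 37.5%, and none narrower. They were the Tek ligands Angpt1 (5873 and 11498 bp) and Angpt2 (9289 and 14023 bp), the growth factors Vegfb (4871 and 6727 bp) and Vegfc (3769 and 5385 bp), the latter a ligand of Flt4, and Eng and Ptprb, which stand in both lists. Adjusted p ran from 0.00233 to 0.0368. In counts added after the values were seen, per Mb covered, Eng was the 1 wider gene of the first list and Angpt1 and Eng the 2 of the second, where 5.89% of all genes were wider and 6.31% narrower. Under quantile normalization the counts were 0 and 2 (Angpt1 and Angpt2), where 5.54% of all genes were wider and 4.48% narrower. Among the receptors of these ligands, Kdr, Flt4 and Tek were not called; the window of Tek also holds part of Eqtn.

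Clec4g, the sinusoidal lectin, separated propionylated from acetylated H4K5. Its window of 18630 bp (gene at chr8:3707066-3720695) held 500 and 500 bp of H4K5ac in WT and 1000 and 500 bp in PA. H4K5pr covered 6754 and 4934 bp in WT and 6247 and 7411 bp in PA. Every H4K5pr library lay far above every H4K5ac library, in both genotypes. The share of all genes at which H4K5pr and H4K5ac did not overlap was not counted. The means were 625 ± 250 bp and 6337 ± 1049 bp (SD, n = 4 each), a difference of 5712 bp (SE 494). By limma with genotype in the model the adjusted p was 0.00171 and the rank 57 of 15015 genes. Without PA B replicate 1 the adjusted p was 0.0581 and without PA B replicate 2 0.0513, where 13 genes were called in each fit against 420 with all libraries. At its start, within the promoter printed above and around it, H4K5pr covered 2479 to 2784 bp of the 5000 bp and H4K5ac 0 bp in 4 of 4 libraries.

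Clec4g was the 1 gene called of the 10, where 1.47% of all genes were wider in H4K5pr and 1.33% narrower; 52.6% of all calls were wider, against 89.5% per Mb and 70.3% under quantile normalization. Kdr held 0, 0, 500 and 0 bp of H4K5ac (the WT pair first) and 2500, 1500, 1593 and 4491 bp of H4K5pr, again with no overlap. Its difference was 2396 bp (SE 566, adjusted p = 0.0586), and the adjusted p was 0.0209 on the log2 scale and 0.0379 per Mb. Fli1 held 1500, 656, 5330 and 500 bp of H4K5ac and 6136, 4832, 11274 and 6982 bp of H4K5pr. In each preparation H4K5pr was the wider at Fli1, by 4176 to 6482 bp, while the 2 marks overlapped across preparations. Its difference was 5310 bp (SE 1194, adjusted p = 0.0517).

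With preparation as a block Fli1 was called as well (adjusted p = 0.0119) and Clec4g stayed called (0.00777), and 817 genes were called in all, 2.52% of all genes wider and 2.92% narrower. The next differences were at Erg, 3842 bp (adjusted p = 0.173), and Flt4, 1055 bp (0.194). Stab2 went the other way, with 29057 ± 11702 bp of H4K5ac and 25026 ± 8457 bp of H4K5pr (SD, n = 4 each, both genotypes; adjusted p = 0.309), and so did Lyve1, 10898 ± 2667 bp and 8643 ± 2289 bp (0.445). Over the 10 genes 5 had an unadjusted p under 0.05, beside 18.4% of all genes, and the median difference was 827 bp against 30.3 bp over all genes.

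**Figure D5:**
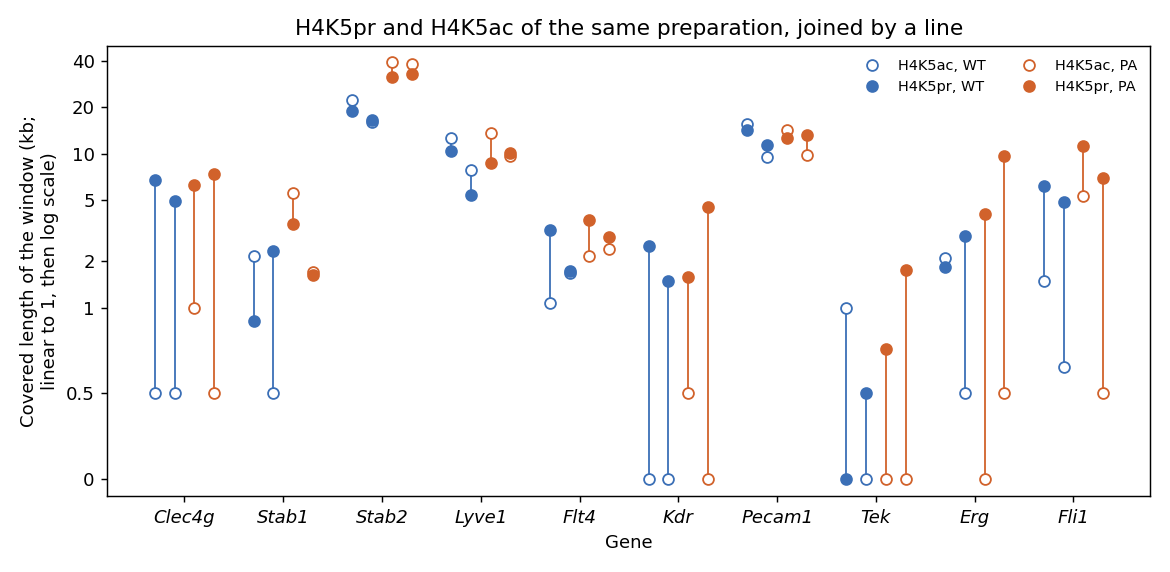
Covered bp of H4K5ac and H4K5pr in each of the 4 preparations with both marks, for the 10 genes, with the values of 1 preparation joined by a line. Clec4g and Kdr lie higher in H4K5pr in every preparation with no overlap, and Stab2 lies lower in 3 of 4.

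Other lists showed calls for the same pair. Of 15 hepatocyte genes 7 were wider in H4K5pr, among them Alb (8081 ± 1626 bp of H4K5ac and 19647 ± 422 bp of H4K5pr), Ass1 (12673 ± 1352 and 46874 ± 5912 bp) and Cps1 (21400 ± 8931 and 79119 ± 21104 bp, SD, n = 4 each), with Apob, Cyp2e1, Tat and Ttr. Of 29 tested other endothelial genes 2 were wider, Ehd3 (250 ± 500 and 3144 ± 1558 bp) and Ptprb (535 ± 620 and 4469 ± 2836 bp). Among neuronal genes Syt1 was narrower. None of 6 tested Kupffer cell genes was called by limma, with 1 at an unadjusted p under 0.05.

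Whether genotype changed the gap between H4K5pr and H4K5ac was tested on the differences of 2 WT and 2 PA preparations. None of the 10 genes was called by limma, where 0.00666% of genes were called, and 2 had an unadjusted p under 0.05, beside 6.66% of all genes. At Fli1 the gap was 4636 and 4176 bp in WT and 5944 and 6482 bp in PA (unadjusted p = 0.00713, adjusted p = 0.696). At Stab2 H4K5pr minus H4K5ac was -7889 and -5400 bp in PA and -3378 and 544 bp in WT, so it was below 0 in 3 of 4 preparations (unadjusted p = 0.0451, adjusted p = 0.738). At Clec4g the gap was 6254 and 4434 bp in WT and 5247 and 6911 bp in PA, groups that overlapped.

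The other acyl pairs gave no call among the 10 genes. For H4K12pr against H4K12ac, limma called 0 genes of the 10 and 2 had an unadjusted p under 0.05 (12.4% of all genes did), where 0.231% of all genes were wider in H4K12pr and 0.0264% narrower. Clec4g there went opposite to H4K5, with H4K12ac of 2994, 2639, 2430 and 4541 bp and H4K12pr of 500, 500, 2688 and 2009 bp (adjusted p = 0.191). Kdr held 0 to 500 bp of H4K12ac and 660 to 1758 bp of H4K12pr without overlap (adjusted p = 0.251). For the H4K12 and H4K16 pairs, too, the share of all genes without overlap was not counted. For H4K16bu against H4K16ac, limma called 0, where 0.00704% of genes were called, and 7 had an unadjusted p under 0.05, beside 17.5% of all genes. The H4K16bu mean was higher at 10 of 10 genes, beside 73.5% of all genes, by a median of 3648 bp against 450.5 bp over all genes. It was also higher at 29 of 29 tested other endothelial, 15 of 15 hepatocyte and 7 of 7 tested cholangiocyte genes. Of the 16 vascular growth factor and angiopoietin pathway genes it was higher at 11. H4K16ac libraries covered 85.9 Mb of genome on average and H4K16bu libraries 107 Mb. Erg came nearest, with H4K16ac of 0 to 2285 bp and H4K16bu of 3569 to 9828 bp (adjusted p = 0.0948). Without PA A replicate 1, which holds the H4K16bu library that stood apart, 5 of the 10 were called, beside 5.76% of all genes wider and 0.0358% narrower in that fit.

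Genes whose covered share of the window followed that of the 10 genes most closely over the 36 libraries were Prkch (Pearson r = 0.937), Sh2d3c (0.925), Tmcc2 (0.913), Exoc3l2 (0.911) and Ets1 (0.910), out of 16072 genes. The 36 points share antibodies, preparations and depth, so these values are a description. Ets1 is an ETS factor of endothelium and lymphocytes and stands in the list of other endothelial genes.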

How the data were processed

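The measured data were peak positions of native ChIP-seq libraries from frozen mouse liver. Per the labels' protocols, chromatin was digested with MNase and libraries were size selected. Tools named in the submitters' processing notes are HOMER 4.10, bedtools 2.31.0, R 4.1.2, SAMtools 1.17, Bowtie2 2.5.1 and cutadapt 3.5, with GRCm38 as the build. Settings of the peak caller and the use of inputs are not given in the sources. Read depth is unknown, because the deposited lists hold positions without counts or scores, and no interval that needs counts is given. A peak list can widen with sequencing depth or input, so covered bp may depend on both.

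From the deposited peak starts and ends, covered bp was computed for 21631 protein-coding genes (body plus 2500 bp each side, RefSeq annotation of GRCm38), leaving out 20 rows on chromosome Y. Genes covered at any base in 2 or more of the fitted libraries entered the test, which was limma 3.58.1 with trend in R 4.3.3, with Benjamini-Hochberg adjustment over all of them and a threshold of 0.05. For PA against WT, antibodies were averaged within each preparation (4 WT and 4 PA) with preparation letter as covariate. An SD over the 4 preparations of 1 genotype therefore also holds the difference between A and B. Mark pairs were fitted on their 8 libraries with genotype as covariate. Alternatives were a log2(covered bp + 1000) scale, covered bp per Mb covered in the library, quantile normalization, equal numbers of the widest peaks, peaks of at least 1000 bp, other windows, no filter, a block for replicate number, and leaving out preparations or antibodies. H4K5ac and H4K5pr of 1 number share a preparation, and their deviations from group means had r of 0.501 in WT and 0.553 in PA over 16082 genes. The scripts were tested on simulated data. Python 3.11.15, numpy 2.4.6, pandas 2.3.3 and matplotlib 3.10.9 were used.

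The genes and lists were chosen with earlier results of these data known. Named genes are the 10 genes, every gene of another list past the threshold in the pooled or the H4K5 comparison, otherwise the 2 of a list with the smallest p in the pooled comparison, and the 5 genes most like the 10. Marco, Cd3e, Cd8a and the other genes without a peak, and Ptprb and Ehd3 under H3K9ac, were named after their values were seen. So were Id3, Ahsg, Cd4 and Cldn7, and Syt1 on the per-Mb scale. Some genes of the marker lists that meet the rule are not reported here.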

Additional observations from a re-analysis of the deposited data

Results flagged for a closer look

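In groups of 4 libraries of H3K9ac, H3K27ac, H4K5ac or H4K5pr, or 4 preparations of 1 genotype, a value was looked at again when its gap to the nearest other value as a share of the group's range exceeded Dixon's 95% critical value for 4 values. Of 60 groups checked, 4 met this. The rate of about 1 in 20 expected by chance holds for continuous, normally distributed values. It does not apply to the H4K5ac groups below, in which the other 3 values are equal. At Clec4g the first PA library of H4K5ac held 1000 bp and the other 3 held 500 bp each. At Kdr the first PA library of H4K5ac held 500 bp and the other 3 held 0 bp. At Tek the first WT library of H4K5ac held 1000 bp and the other 3 held 0 bp. The shortest peak in every list is 500 bp. At Erg the first PA library of H3K9ac was the lowest at 14756 bp, where the others held 17805, 18121 and 18398 bp.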

How the results depend on the processing

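For PA against WT with antibodies averaged, 2 of the 10 genes were called. The count was 0 at starts alone and 0 with preparation B alone. It was 1 without trend, 1 with A and B of 1 number averaged, 1 without H4K16ac, 1 with preparation A alone and 1 without H3K9ac, and 1 to 2 when a preparation was left out. Genes called in all were 3570, and 1961 per Mb, 1611 under quantile normalization, 1835 with equal numbers of the widest peaks, 637 at starts alone, 1548 with A and B averaged, 2021 without H4K16ac, 641 with preparation A alone, 3 with preparation B alone, and 2019 to 4413 when a preparation was left out. Numbers of WT and PA mice do not pair (r of -0.121 in preparation A and -0.183 in preparation B). The replicate block called 2 of the 10 and 2673 genes, and the crossed pairing, added after the data were seen, 2 and 3854.

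The genes that follow were not called in either direction. Clec4g changed sign per Mb (-4.16 bp per Mb), under quantile normalization (-545 bp), with equal numbers of peaks (-300.4 bp), without H4K16ac (-303 bp) and with preparation A alone (-669.5 bp), and lay between -210 and 1003 bp when a preparation was left out. Fli1 changed sign per Mb (-1.98 bp per Mb), under quantile normalization (-403 bp), with equal numbers of peaks (-46.2 bp) and with preparation A alone (-1459 bp), and lay between -667 and 2160 bp over left-out preparations. Flt4 changed sign per Mb (-0.916 bp per Mb), under quantile normalization (-224 bp), with equal numbers of peaks (-375 bp), for the gene body alone (-152 bp) and at its start (-124 bp). Kdr changed sign on the log2 scale (0.037), with preparation B alone (623 bp), without H4K16bu (69.8 bp) and without H3K9ac (29.9 bp), and lay between -401 and 388 bp over left-out preparations. Tek changed sign with preparation B alone (184 bp) and without H4K16bu (33.0 bp), and lay between -308 and 195 bp.

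For H4K5pr against H4K5ac, 1 of the 10 was called. The count was 2 on the log2 scale, 3 per Mb, 2 with 5 kb flanks, 2 with the replicate block, which pairs marks of 1 preparation, and 0 to 1 when a preparation was left out. Genes called in all were 420, and 165 under quantile normalization, 126 with equal numbers of peaks, 146 with peaks of at least 1000 bp, 52 at starts, 253 without a filter, 817 with the block, and 8 to 22 when a preparation was left out. Over all genes, 221 were wider in H4K5pr and 199 narrower in the main fit. The counts were 247 and 242 on the log2 scale, and 538 and 63 per Mb. The count over all genes with 5 kb flanks is not given here. Uncalled genes changed sign at Flt4 (-65.3 bp with equal numbers of peaks, -300.3 bp with peaks of at least 1000 bp), Stab1 (122.5 bp for the gene body, 229 bp with 5 kb flanks, between -1115 and 185 bp over left-out preparations), Stab2 (555 bp at its start) and Pecam1 (-333 to 1332 bp over left-out preparations). For H4K16bu against H4K16ac, 0 were called, 1 per Mb, and 0 to 5 when a preparation was left out. The share of all genes called per Mb was not counted for H4K16bu against H4K16ac. For H3K9ac against H3K27ac, limma called 8, and 4 at starts, where Stab2 changed to 3310 bp (adjusted p = 0.00110). The share of all genes called at starts was not counted for this pair. Stab2 was also above 0 per Mb (42.8 bp per Mb), under quantile normalization (7078 bp), with equal numbers of peaks (125 bp) and with peaks of at least 1000 bp (383 bp), and Pecam1 per Mb (16.6 bp per Mb) and under quantile normalization (2104 bp). Pairs of gene and antibody called within 1 antibody were 0, 1 without trend and 1 with the replicate block. The cause of these changes was not tested.

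Of 699 alternative values, 461 of single genes kept direction and side of the threshold and 113 of counts stayed within 1.5 times. Among the others, 42 of single genes changed direction, 31 lost a call and 9 gained one, and 43 counts moved further than 1.5 times. Read depth is unknown, and each antibody has 2 libraries per genotype. Fli1, Lyve1 and Pecam1 have no value at starts.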
